A study of Mus musculus with 6 samples.

Results

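The genes described here are the keratin genes of the hair inner root sheath and the trichohyalin genes, 10 of the 24063 gene symbols in the data. They are the type I keratins Krt25, Krt26, Krt27 and Krt28, the type II keratins Krt71, Krt72, Krt73 and Krt74, trichohyalin (Tchh) and trichohyalin-like 1 (Tchhl1). They were chosen by symbol and on their measured difference between tumors and normal tissue in these counts, so that this difference is given for them as a description, without a test. The libraries came from 3 SA mice (penile tumor) and 3 wild type (WT) mice (normal penile epithelium), all 5 months old. SA mice are PB-Cre+ Smad4L/L ApcL/L. In these animals Cre recombinase, driven by the androgen-responsive probasin promoter, deletes Smad4 and Apc in penile and prostate epithelium, and tumors arose with no carcinogen. The WT mice were C57BL/6 and are given no Cre or floxed allele in the labels, so that the tumor, Cre and any difference in strain cannot be told apart. Each library was labelled as a sample of its own, and with 3 in each group no exact two-sided permutation test of a single gene can give a p-value below 0.1.

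The inner root sheath is the rigid sleeve that surrounds and molds the growing hair shaft. Its cells build filaments from type I and type II keratins, which pair with each other, and embed them in trichohyalin, a matrix protein of the S100 fused-type family. Peptidylarginine deiminases convert arginines of trichohyalin to citrulline, and transglutaminases then cross-link it to the keratin filaments as the cells harden. In hair follicles Krt25, Krt27, Krt28 and Krt71 are known from all layers of the sheath, and Krt26, Krt72 and Krt73 from its cuticle. The mouse Krt74 row is a noncoding RefSeq transcript, annotated as a transcribed pseudogene.

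The members lie in 3 runs in GRCm38, the assembly that mm10 denotes. The 4 type I genes span 59.4 kb of chromosome 11 (99315516 to 99374903), and the 4 type II genes span 68.4 kb of chromosome 15 (101733949 to 101802360), all 8 on the minus strand. Tchh and Tchhl1 span 29.7 kb of chromosome 3 (93442330 to 93471980) on the plus strand. RefSeq promoters of GRCm38.p6, from 250 bases before to 50 bases after the start, were at hand for 9 members. Those of 3 members are printed 5′ to 3′ because each carries some of the features that recurred among the members. Krt71 (minus strand, chr15:101743048-101743347) and Krt73 (minus strand, chr15:101802311-101802610) share the longest run of any pair, and Krt27 (minus strand, chr11:99351069-99351368) is the highest of the type I genes. Capitals mark the strings searched. For GATA factors these were AGATAA or else TGATAA, and for homeobox factors TAATTG. For TCF/LEF factors they were CTTTGAA, with the variants CTTTGTT as well as CTTTGAT and also CTTTGTA. Both strands were searched for these, and the sense strand alone for the TATA box TATAAA.
Krt71: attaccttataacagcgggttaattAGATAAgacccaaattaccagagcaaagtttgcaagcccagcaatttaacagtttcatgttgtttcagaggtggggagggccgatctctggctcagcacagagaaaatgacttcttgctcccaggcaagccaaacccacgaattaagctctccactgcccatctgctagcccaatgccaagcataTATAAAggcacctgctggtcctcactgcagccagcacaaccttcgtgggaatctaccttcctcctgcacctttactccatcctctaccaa
Krt73: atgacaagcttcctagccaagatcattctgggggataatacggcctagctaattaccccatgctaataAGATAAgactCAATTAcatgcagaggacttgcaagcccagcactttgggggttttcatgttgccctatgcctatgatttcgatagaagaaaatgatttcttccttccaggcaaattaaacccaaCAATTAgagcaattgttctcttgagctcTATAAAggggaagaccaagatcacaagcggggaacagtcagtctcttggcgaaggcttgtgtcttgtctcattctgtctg
Krt27: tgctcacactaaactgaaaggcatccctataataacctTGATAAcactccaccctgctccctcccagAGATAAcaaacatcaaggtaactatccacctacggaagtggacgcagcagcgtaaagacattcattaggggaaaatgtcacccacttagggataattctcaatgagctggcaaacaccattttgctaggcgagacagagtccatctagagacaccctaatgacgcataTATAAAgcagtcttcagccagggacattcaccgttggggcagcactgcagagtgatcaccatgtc
A GATA string was present in 6 of the 9 promoters, against 18.6% of the 32851 promoters of that length, and TAATTG in 5 of 9, against 8% of all. A TATAAA whose first base lies 40 to 21 bases before the start was present in 5 of 9, against 1.99% of all. The TATAAA marked in Krt27 begins 15 bases before the start and is not among these, and Krt71 and Krt27 carry no TAATTG. TCF/LEF strings were present in 3 of 9, against 16.9%. The Tchh promoter is shown because its strings overlap. In the Tchh promoter (plus strand, chr3:93442080-93442379) a TCF/LEF string read on the antisense strand begins 159 bases before the start and shares its last bases with AGATAA, and CTTTGAA follows 144 bases before the start.
Tchh: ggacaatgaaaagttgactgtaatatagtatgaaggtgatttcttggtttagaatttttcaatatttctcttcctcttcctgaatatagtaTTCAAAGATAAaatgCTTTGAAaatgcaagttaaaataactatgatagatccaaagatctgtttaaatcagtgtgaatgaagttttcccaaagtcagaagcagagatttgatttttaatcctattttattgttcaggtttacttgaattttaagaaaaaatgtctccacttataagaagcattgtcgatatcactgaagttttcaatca
The longest identical run between any pair of these promoters was TTGCAAGCCCAGCA, 14 bases long, 196 bases before the start of Krt71 and 154 before that of Krt73. No other promoter in the table holds it, and the runs were compared after the sequences had been seen. These matches are descriptions of letters, and the data hold no measurement of binding.

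All 10 genes were higher in SA tumors than in WT penises, and in each of them the lowest tumor lay above the highest WT sample. Values are counts per 1000000 (CPM), normalized by the TMM method of edgeR, which scales libraries so that most genes do not differ. The summed level of the 10 genes was 2881, 3310 and 1399 CPM in SA tumors 1, 2 and 3, and 26.5, 19.9 and 19.6 CPM in WT penises 1, 2 and 3. Among the 16336 genes that passed the filter on low counts, 32.7% had every tumor above every WT sample, and 9.64% reached a fitted log2 fold change of 2. All 10 members reached it. Their median was 8.43, or 8.15 with Krt26 at its lower bound, beside 0.03 over all genes tested. The choice of the genes fixed this direction. All 10 passed the filter, which for the members with few or no counts in WT penises rested on the tumors. In a bulk sample, more cells of a kind and more RNA per cell cannot be told apart.

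The libraries held 23828283 to 110509147 counts over the gene symbols. SA tumor 3 was the deepest, at 4.42 times the median of the other 5. A level of 3 counts, taken as the floor, corresponds to 0.0244 CPM in SA tumor 3 and to 0.0993 to 0.137 CPM in the other libraries, and this covers counting error only. Smad4 was at 36.1 to 46.1 CPM in SA tumors and 61.2 to 72.5 CPM in WT penises. Apc was at 194 to 253 CPM in SA tumors and 62.5 to 91.1 CPM in WT penises. Counts over the whole transcript do not resolve deleted exons, so that they neither check nor contradict the genotype.

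**Figure D1:**
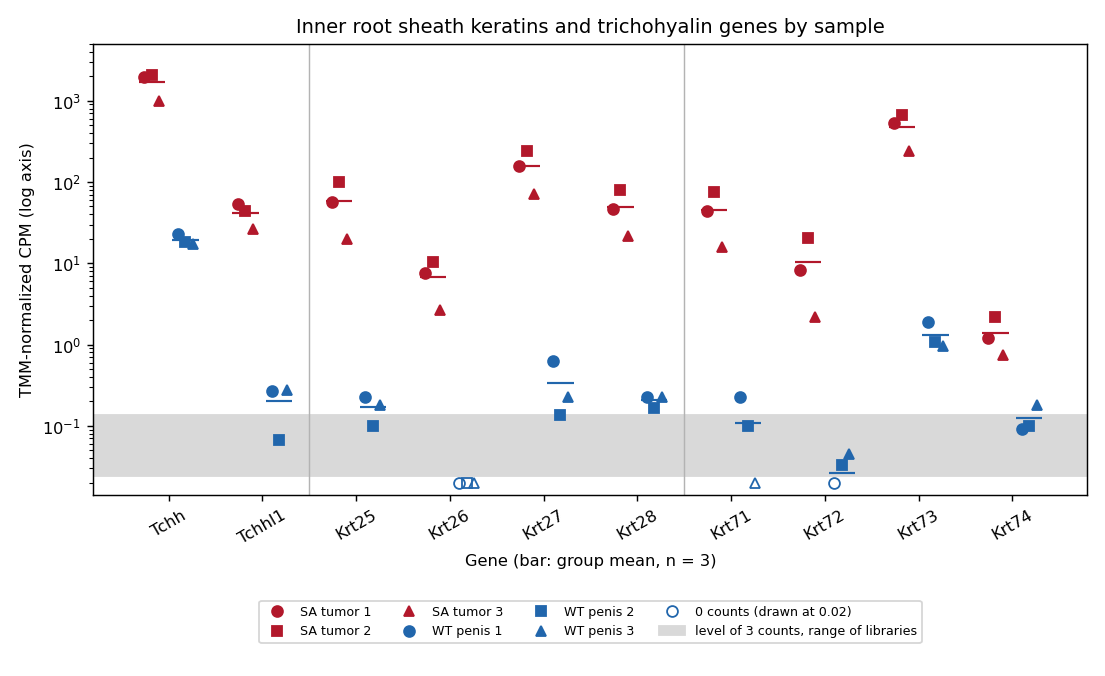
TMM-normalized CPM (log axis) of the 10 genes in each SA tumor (red) and each WT penis (blue), with bars at the group means (n = 3). Tchh and Krt73 are the highest in both groups, Krt26 has no count in any WT penis, and the groups do not overlap in any gene.

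Among the type I keratins, Krt27 was the highest. It was measured at 159, 242 and 71.0 CPM in SA tumors 1, 2 and 3 and at 0.633, 0.134 and 0.228 CPM in the WT penises. The group means were 157 ± 85.3 and 0.331 ± 0.265 CPM (SD, n = 3 each), with a fitted log2 fold change of 8.95. Krt25, named as a sheath keratin of all layers, was at 56.8, 99.2 and 19.7 CPM in the tumors and at 0.226, 0.100 and 0.182 CPM in the WT penises. Krt28 was close to Krt25, at 46.4, 79.3 and 21.5 CPM in the tumors and 0.226, 0.167 and 0.228 CPM in the WT penises. The log2 fold changes of Krt25 and Krt28 were 8.46 and 7.89. In each of these 3 genes SA tumor 2 was the highest and SA tumor 3 the lowest, and the WT levels rested on 12 counts in all for Krt25, 23 for Krt27 and 15 for Krt28.

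Krt26, a keratin of the sheath cuticle, was lower than the other type I keratins in the tumors and absent from the WT counts. It had 207, 310 and 324 counts in SA tumors 1, 2 and 3, or 7.69, 10.3 and 2.63 CPM, and 0 counts in all 3 WT penises. Against the floor of 3 counts per library, its mean in the tumors was at least 50.2-fold higher, and SA tumor 3 alone was at least 19.3-fold higher. The fitted log2 fold change of 11.17 depends on how a count of 0 is treated and is not a bound. The bound corresponds to a log2 fold change of 5.65.

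Krt73 was the most abundant of the 8 keratins. It was measured at 528, 665 and 244 CPM in SA tumors 1, 2 and 3 and at 1.90, 1.07 and 0.957 CPM in the WT penises. The means were 479 ± 215 and 1.31 ± 0.515 CPM (SD, n = 3 each), and the log2 fold change was 8.53. Krt73 is also the only keratin of the group with more than 20 counts in every WT penis, at 42, 32 and 21. Its lowest tumor was 128-fold above its highest WT sample. Krt71, the type II keratin of all sheath layers, was at 43.4, 76.2 and 15.8 CPM in the tumors and at 0.226, 0.100 and 0 CPM in the WT penises. The WT values of Krt71 rest on 8 counts.

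Krt72, a cuticle keratin, showed the widest spread between tumors. It was at 8.21, 20.4 and 2.18 CPM in SA tumors 1, 2 and 3, a 9.35-fold range. The WT penises held 0, 1 and 1 counts. The ratio of the summed tumor to the summed WT counts, scaled by library size, was 227, with a 95% interval from counting error of 62.6 to 1874 (exact binomial, conditional on the total). This sum gives most weight to SA tumor 3, the deepest library, and the ratio of the group means was 390. The interval leaves out the spread between tumors and is no test of the difference. The Krt74 pseudogene transcript was the lowest and the least different. It was at 1.19, 2.18 and 0.747 CPM in the tumors and at 0.0904, 0.100 and 0.182 CPM in the WT penises, a log2 fold change of 3.42, and its lowest tumor was 4.10-fold above its highest WT sample. Krt74 shares 13 of its 1647 stretches of 76 bases, the read length, with Krt71 and 2 with Krt73, the most abundant keratin. The scaled ratio of summed counts of Krt74 was 8.67, with a 95% interval from counting error of 4.47 to 19.3, and the ratio of its group means was 11.1.

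Trichohyalin was the most abundant gene of the group by CPM and per unit length. Tchh was measured at 1975, 2071 and 996 CPM in SA tumors 1, 2 and 3 and at 23.0, 18.2 and 17.5 CPM in the WT penises. The means were 1681 ± 595 and 19.5 ± 2.98 CPM (SD, n = 3 each), which gave a log2 fold change of 6.43. Each WT penis held 384 to 544 counts of Tchh, more than of any other gene of the group. Tchhl1, its neighbor and relative, was at 54.2, 44.3 and 26.1 CPM in the tumors and at 0.271, 0.0668 and 0.273 CPM in the WT penises, with a log2 fold change of 7.74. It was the only member that was highest in SA tumor 1.

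Levels of different genes were compared per length, by the deposited length-scaled transcript values (TPM, which sum to 1000000 over a library). In the tumors Tchh had 509 ± 171 TPM, Krt73 391 ± 166 and Krt27 179 ± 92.4 (SD, n = 3 each), and these 3 kept this order in each tumor. Krt25 and Krt28 followed at 62.0 ± 40.5 and 57.7 ± 32.4 TPM and changed places between tumors. Krt71 and Tchhl1, at 36.3 ± 23.4 and 35.6 ± 12.0 TPM, also changed places, and in SA tumor 3 Tchhl1 was above Krt25. Krt72, Krt26 and Krt74 closed the order, with Krt72 at 9.40, 22.3 and 2.54 TPM in SA tumors 1, 2 and 3, Krt26 at 4.63 ± 2.52 and Krt74 at 1.52 ± 0.763 (SD, n = 3 each). The spread between tumors is wider than the step between most neighbors in this order.

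Krt73 and Krt27 made up most of the keratin RNA in each tumor. The 8 keratins summed to 793, 1082 and 357 TPM in SA tumors 1, 2 and 3, and to 2.23, 1.24 and 1.44 TPM in the WT penises. Type II keratins were 1.58, 1.31 and 1.66 times the type I keratins in the 3 tumors. Krt73 made up 55.3%, 48.8% and 57.8% of the summed keratin TPM there, and Krt27 23.4%, 24.8% and 23.6%. The share of Krt72 varied more, from 0.712% to 2.06%. In WT penises the share of Krt73 was 50.6%, 56.0% and 44.4%, from 73, 51 and 40 keratin counts in all. As a share of counts, Krt73 made up 62.0%, 55.7% and 64.6% in SA tumors 1, 2 and 3. Its 95% Clopper-Pearson intervals, also on counts, were 45.4% to 69.0%, 48.1% to 75.9% and 36.1% to 68.5% in WT penises 1, 2 and 3. Each interval holds all of these tumor shares, so that no difference could be told at this depth. The intervals cover counting error within a library and not the spread between mice. The share of Krt27 in the WT penises was 23.6%, 9.79% and 14.8%. The shares of Krt74 (3.27% to 11.5% in WT penises, 0.169% to 0.24% in tumors) and Krt28 (8.71% to 15.3% and 7.03% to 8.41%) did not overlap between the groups, on 9 and 15 counts over the 3 WT penises. Nor did that of Krt26, at 0.517% to 0.667% in tumors and 0% in the WT penises, where it had no count. The ratio of Tchh to the summed keratins in TPM was 0.765, 0.562 and 0.875 in the tumors and 2.26, 3.52 and 3.01 in the WT penises, with no overlap between the groups.

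**Figure D2:**
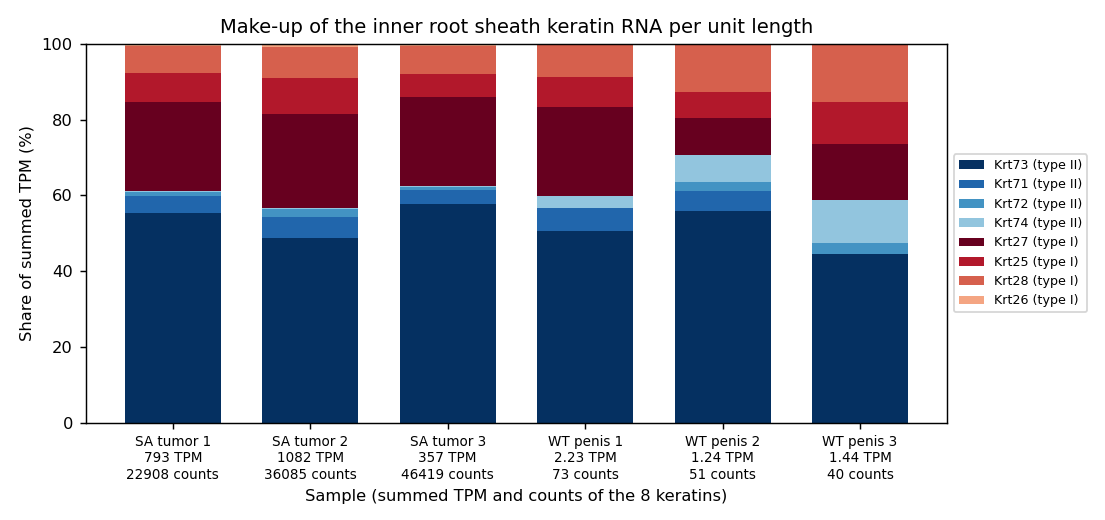
Share (%) of the summed TPM of the 8 keratins taken by each keratin, in each sample, with the summed TPM and counts of that sample under its bar. Krt73 and Krt27 make up most of the RNA in the 3 tumors, and the WT bars rest on 40 to 73 counts.

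The amount differed between tumors more than for most genes. Of the 10 genes, 9 were highest in SA tumor 2, then SA tumor 1, then SA tumor 3, and Tchhl1 was highest in SA tumor 1. All 10 were lowest in SA tumor 3. Among all genes tested, 20.1% had the order 2, 1, 3 and 36.1% were lowest in SA tumor 3. The SD of log2 CPM over the 3 tumors had a median of 0.922 over the members, against 0.381 over the 1537 genes called higher in SA tumors and 0.189 over all genes tested. It ran from 0.544 for Tchhl1 and 0.591 for Tchh to 1.15 for Krt71, 1.18 for Krt25 and 1.61 for Krt72. Markers of other cell types moved between the tumors too. The 5 fibroblast markers summed to 970, 2459 and 3108 CPM in SA tumors 1, 2 and 3, the 6 leukocyte markers to 108, 247 and 317, the 4 endothelial markers to 117, 120 and 179 and the 6 muscle markers to 30.4, 74.9 and 102. The 7 squamous epithelium markers, Krt5 and Krt14 among them, summed to 11640, 11131 and 13331 CPM. All of these sums were highest in SA tumor 3, and their part in the lower member levels there was not tested. Single squamous markers differed. Krt5, Krt14 and, by little, Trp63 were highest in SA tumor 3, and Perp and Dsg3 in SA tumor 1. Epcam, at 206, 200 and 126 CPM in SA tumors 1, 2 and 3, and Cdh1, at 474, 437 and 389 CPM, were lowest in SA tumor 3.

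**Figure D3:**
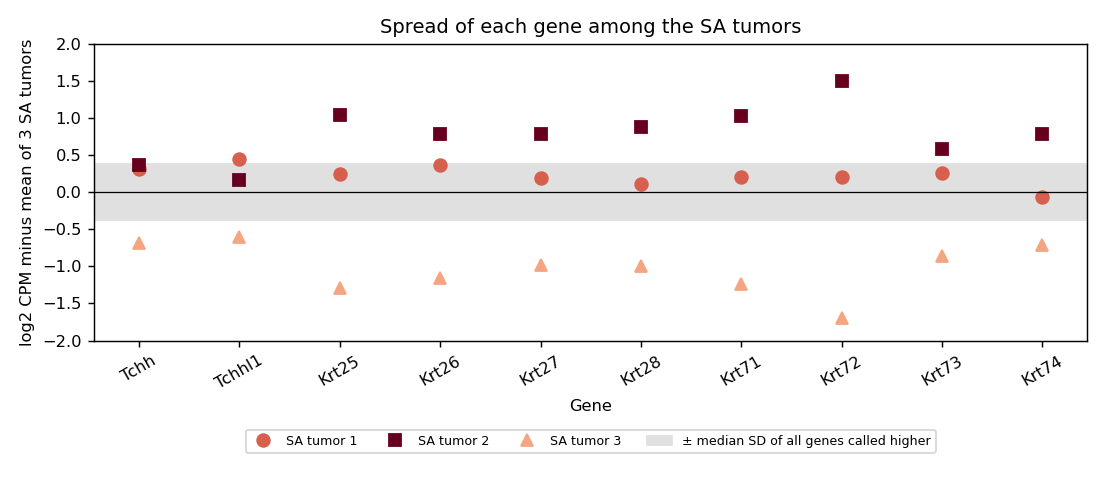
Log2 CPM of each gene in each SA tumor minus its mean over the 3 tumors, with a gray band at ± 0.381, the median SD of all genes called higher in SA tumors. SA tumor 2 lies highest in 9 genes, SA tumor 3 lies lowest in all 10, and Krt72 spreads the most.

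The gene directly beside each run, on either side, had a log2 fold change between -3.31 (Krt24) and 0.60 (Krt2). Of the 18 nearest gene symbols, 3 on either side of each run, 17 were tested. A gene was called where the adjusted p-value lay under 0.01 and the log2 fold change reached 2 in either direction. By this rule 2 were higher and 2 were lower in SA tumors, where 9.41% of all genes tested were higher and 3.59% were lower. Krt24 and Krt10 lie directly beside the type I run. Krt24 was at 17.1 ± 4.11 CPM in WT penises and fell to 1.79 ± 0.758 CPM in SA tumors (SD, n = 3 each), with a log2 fold change of -3.31 ± 0.325 (standard error) and an adjusted p of 7.33e-05. Krt10, the type I keratin of differentiating epidermis, was at 24984 ± 1923 CPM in WT penises and 6373 ± 1747 in SA tumors, a log2 fold change of -1.97 (adjusted p = 9.55e-05) just short of the fold-change threshold. It passed that threshold when WT penis 2, WT penis 3 or SA tumor 2 was left out.

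Beside the type II run lie Krt5, the basal keratin of stratified epithelium, and Krt2. Krt5 had a log2 fold change of -1.21 (adjusted p = 7.35e-05) and Krt2 one of 0.60 (adjusted p = 0.142). Krt6b, further out on the Krt5 side, was at 278 ± 98.2 CPM in WT penises and rose to 3790 ± 520 CPM in SA tumors (SD, n = 3 each), with a log2 fold change of 3.77 (adjusted p = 2.86e-05). It is a near copy of Krt6a, and reads can be shared between them. Krt222 was the other neighbor called higher, its mean going from 0.0566 ± 0.0305 to 1.09 ± 0.156 CPM (SD, n = 3 each). Beside Tchh, the S100 fused-type genes Rptn and Hrnr had log2 fold changes of -1.21 and -3.36, and beside Tchhl1 the calcium-binding S100a11 had one of 0.32 (adjusted p = 0.0562).

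**Figure D4:**
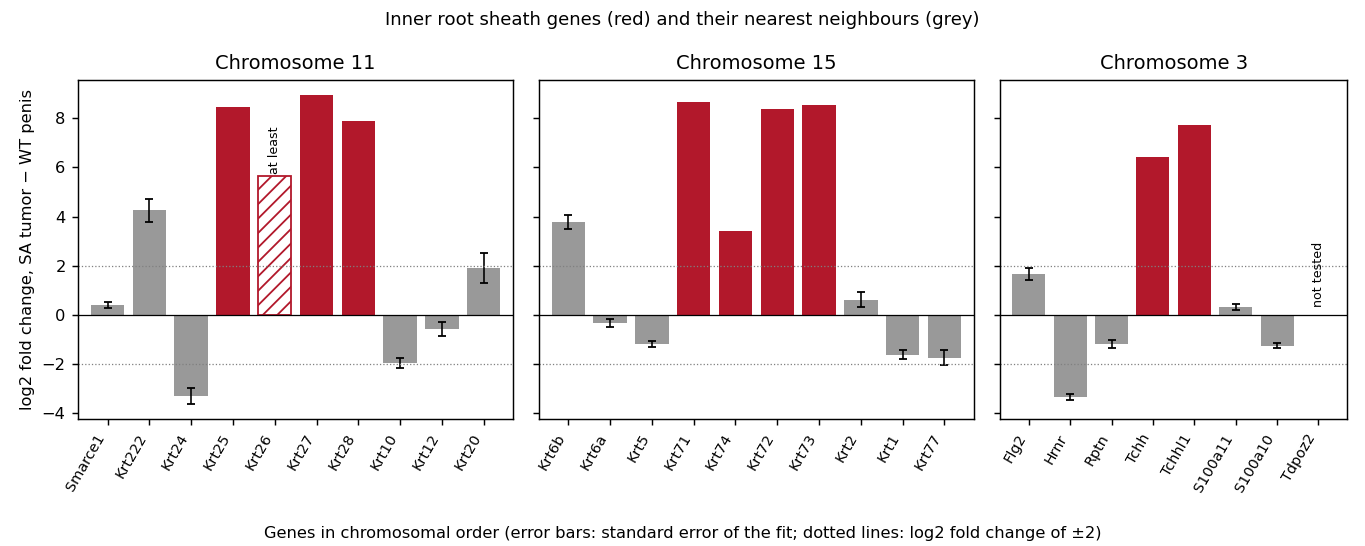
Log2 fold change (SA tumor minus WT penis) of the members (red) and the 3 nearest genes on either side (gray, with standard errors), in chromosomal order, with dotted lines at ± 2. The hatched bar of Krt26 is its lower bound of 5.65. The 6 genes directly beside the runs lie between -3.31 and 0.60, and Krt222 (4.25) and Krt6b (3.77), further out, lie above the member Krt74 (3.42).

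Enzymes of the deiminase and transglutaminase families, listed here as trichohyalin-modifying enzymes, differed among themselves. They were listed by family, and whether each of them acts on trichohyalin was not tested. Of 11 listed deiminases and transglutaminases, 10 were tested, 4 were called higher and 1 lower, and their median log2 fold change was 0.63. Over all genes tested, 9.41% were called higher and 3.59% lower. Padi3, a deiminase known from the hair follicle, was at 218, 216 and 109 CPM in SA tumors 1, 2 and 3 and at 0.769, 0.401 and 0.364 CPM in the WT penises. The log2 fold change of Padi3 was 8.48 ± 0.427 (standard error), of the size seen in the keratins, at an adjusted p of 6.66e-06. Padi4 rose to 86.4, 57.0 and 36.7 CPM, from 0.271, 0.401 and 0.0911 CPM, and Padi1 rose with a log2 fold change of 2.17 (adjusted p = 1.03e-05). Tgm7 was the fourth, at 1.09 to 2.38 CPM in the tumors. Tgm3, the transglutaminase that cross-links trichohyalin, did not pass, with 935, 1180 and 758 CPM in the tumors and 1430, 1460 and 1550 CPM in the WT penises, a log2 fold change of -0.63 (adjusted p = 0.0110). Tgm1 and Tgm5 also did not pass, at log2 fold changes of -0.29 and 0.58. Tgm2, a widely expressed transglutaminase, fell with a log2 fold change of -2.43 (adjusted p = 0.00647), a call that held in 2 of 6 leave-one-out fits. It was lost without SA tumor 2 and without each WT penis, with adjusted p-values of 0.0196 to 0.0299, and with the replicate number as a block (adjusted p = 0.0166).

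The other S100 fused-type genes did not rise with Tchh and Tchhl1. Of 4 tested, 0 were called higher and Hrnr, the hornerin gene of the epidermal surface, was called lower. The shares over all genes tested were 9.41% higher and 3.59% lower. Hrnr was at 2883 ± 226 CPM in WT penises and at 281 ± 7.52 CPM in SA tumors (SD, n = 3 each), with a log2 fold change of -3.36 ± 0.118 (standard error) and an adjusted p of 1.04e-06. Rptn and Crnn had log2 fold changes of -1.21 and -1.95, and Flg2, at 1.85 ± 0.488 CPM in WT penises and 5.89 ± 0.937 in SA tumors (SD, n = 3 each), had one of 1.66. All 3 reached an adjusted p-value under 0.01 and stayed under the fold-change threshold. Crnn passed it without WT penis 3 or SA tumor 2.

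Keratins listed as those of the hair shaft, the structure that the sheath surrounds, went the other way. Of 14 tested, 10 were called lower and 1 higher, with a median log2 fold change of -3.64. Over all genes tested, 3.59% were called lower and 9.41% higher. The summed level of these keratins was 356 to 973 CPM in SA tumors and 6435 to 8992 CPM in WT penises. Krt36 and Krt84 were the highest of the list in WT penises. Whether hair was the source of these keratins was not tested, and the sum is not a measure of hair shaft. Krt36 fell from 2640, 2120 and 1770 CPM in WT penises 1, 2 and 3 to 273, 119 and 88.6 CPM in the tumors, and Krt84 from 2360, 2090 and 1740 to 180, 44.8 and 40.6 CPM. The largest decrease was that of Krt86, at -4.76 ± 0.574 (log2 fold change and standard error, adjusted p = 0.000736). The call of Krt84 was lost without WT penis 2 (adjusted p = 0.0104). Closely related shaft keratins can share reads. Krt32, a keratin of the shaft cuticle, was the exception, at 28.1, 17.1 and 7.83 CPM in the tumors and 1.99, 2.74 and 2.32 CPM in the WT penises. Its log2 fold change was 2.89 (adjusted p = 0.00145), and the adjusted p was 0.0123 without WT penis 1 and 0.0125 without WT penis 3. Krt33a did not pass, with a log2 fold change of 1.65 (adjusted p = 0.00411).

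Keratins of the companion layer and outer root sheath, which border the inner sheath on the outside, were mixed. Of 8 tested, 3 were called higher and 1 lower, and their median log2 fold change was 0.44. The shares over all genes tested were 9.41% higher and 3.59% lower. Krt75, the companion layer keratin, rose from 5.28 to 7.59 CPM in the WT penises to 53.7, 44.9 and 36.7 CPM in SA tumors 1, 2 and 3, a log2 fold change of 2.81 (adjusted p = 1.08e-05). Krt17 and Krt6b rose as well, and Krt15, a keratin of basal cells and of the follicle bulge, fell with a log2 fold change of -3.61 (adjusted p = 2.11e-06). Among 7 suprabasal keratins of epidermis and mucosa, 0 passed both thresholds, with log2 fold changes from -1.97 for Krt10 to 0.60 for Krt2. Their median was -1.63. Krt10, Krt13, Krt77 and Krt1 were lower at adjusted p-values of 8.56e-05 to 0.0017, short of the fold-change threshold. Krt2, Krt76 and Krt4, at 0.60, 0.18 and 0.03, did not reach an adjusted p under 0.01. Over all genes tested, 9625 had an unadjusted p under 0.05.

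Of 11 regulators known from the inner root sheath and the hair matrix, 1 was called higher and 1 lower, with a median log2 fold change of -0.30. The share called higher, 9.09%, was close to the 9.41% of all genes tested, of which 3.59% were lower. Lef1, which binds DNA together with beta-catenin in the hair matrix, rose from 0.859, 0.467 and 0.547 CPM in the WT penises to 78.7, 57.6 and 51.1 CPM in the tumors, a log2 fold change of 6.66 (adjusted p = 1.82e-06). Hoxc13, a homeobox regulator of shaft keratin genes, fell from 45.3 ± 4.71 CPM in WT penises to 3.66 ± 0.33 CPM in SA tumors (SD, n = 3 each), which gave a log2 fold change of -3.63 (adjusted p = 1.62e-06). Gata3, which is needed for inner root sheath formation, was at 23.2, 50.2 and 20.4 CPM in the tumors and 9.67, 9.48 and 7.24 CPM in the WT penises. Its log2 fold change of 1.82 (adjusted p = 0.00396) was under the threshold, which it passed without SA tumor 3. Dlx3 and Msx2, homeobox factors of the hair matrix, had log2 fold changes of 0.07 and 0.22 and did not pass. Foxn1 and Vdr had log2 fold changes of -1.43 and -1.36, with adjusted p-values of 3.21e-05 and 1.97e-05, short of the fold-change threshold.

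**Figure D5:**
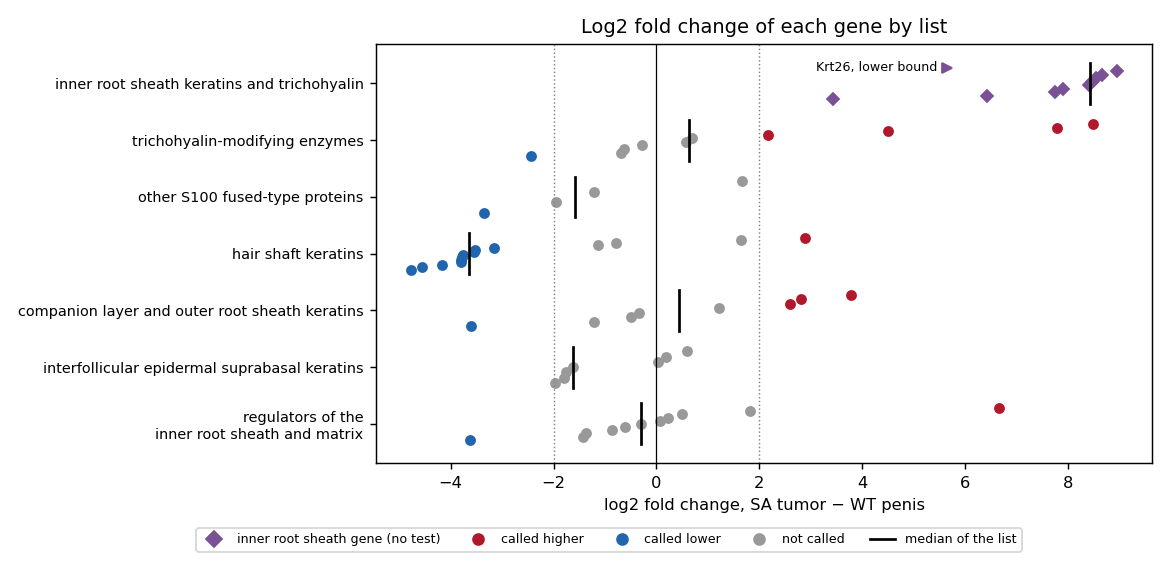
Log2 fold change (SA tumor minus WT penis) of each tested gene by list, colored by its call, with a black line at the median of each list and dotted lines at ± 2. The inner root sheath genes (diamonds, no test, with Krt26 at its lower bound) lie to the right, and 10 of the 14 hair shaft keratins lie beyond -2.

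Summed markers of the follicle stem cells and outer root sheath, and of the dermal papilla, were lower in SA tumors, with no overlap between the groups. The same held for the squamous epithelium markers, at 11131 to 13331 CPM in SA tumors and 19821 to 23610 in WT penises. Fibroblast markers summed to 970 to 3108 CPM in SA tumors and 3684 to 4010 in WT penises, also without overlap. The sums of the endothelial, leukocyte and melanocyte markers overlapped between the groups. The 6 stem cell and outer root sheath markers summed to 181 to 191 CPM in SA tumors and 434 to 492 CPM in WT penises, with a median log2 fold change of -1.01. Cd34 was called lower at -2.11, a call lost without SA tumor 1, where the log2 fold change was -1.97, and with library totals as the only scaling (-1.82). Lgr5, Sox9, Nfatc1 and Tcf7l1 had log2 fold changes of -0.93, -0.97, -1.06 and -1.51 with adjusted p-values of 2.08e-05 to 0.000663, short of the fold-change threshold. Lhx2 alone of the 6 was called higher, with a log2 fold change of 6.62. By the same rule 9.41% of all genes tested were higher and 3.59% were lower. The sum of the 6 dermal papilla markers was 51.8 to 115 CPM in SA tumors and 206 to 241 in WT penises, with Prlr and Enpp2 called lower. The median of this list was near that of all genes, at -0.09. Its other genes, Hey1, Corin, Alx4 and Sox18, had log2 fold changes of 1.06, 0.41, -0.03 and -0.15 and were not called. The call of Enpp2 (adjusted p = 0.00868) was lost without SA tumor 2 and without each WT penis, with adjusted p-values of 0.0246 to 0.0387, with the replicate number as a block (adjusted p = 0.0184) and without the filter on low counts (0.0274). Of the 5 melanocyte markers, Tyr had 0 counts in all 6 libraries, and the sum was 10.6 to 15.5 CPM in SA tumors and 10.8 to 12.9 in WT penises. The 6 muscle markers summed to 1285 to 1721 CPM in WT penises against at most 102 in SA tumors. The part of these markers in the member levels was not tested.

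The profiles most like those of the members were sought among the 13814 other genes whose mean count reached 100. The measure was the root mean square difference, over the 6 samples, from the median member profile of log2 CPM centered on its mean. The 5 nearest were Gprc5d, an orphan G protein-coupled receptor gene, at 0.328, Krt8, a keratin of simple epithelia, at 0.377, Tlx2 at 0.398, and Irx4 and the retinoic acid hydroxylase gene Cyp26a1, both at 0.416. The median over the 13814 genes was 3.76. The members themselves lay between 0.123 for Krt28 and 2.25 for Krt74. Gprc5d was at 33.2 to 102 CPM in SA tumors and at 0.362, 0.334 and 0.273 CPM in the WT penises. Krt8 was at 238, 287 and 134 CPM in the tumors and at 1.49, 1.57 and 1.59 CPM in the WT penises. Like all 10 members, both were lowest in SA tumor 3, which their choice by likeness to the member profile favors. Of all genes tested, 36.1% were lowest there.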

How the data were processed

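Stranded RNA libraries of 3 SA tumors and 3 WT penises were read at 76 bases. Per the labels, TopHat alignments to mm10 were counted by the authors in HTSeq. The deposited counts are raw and given per RefSeq transcript, and the authors derived the deposited FPKM and TPM values from them. The strand setting of the counting is not given in the sources used here. Annotated noncoding genes overlap Krt25 and Krt26 (Gm32502) and, on the opposite strand, Tchh (Gm37245), so that reads from these could not be told apart from the members' own if strand was not used. A gene was represented by its transcript row with the highest mean count, and each member has 1 row. At most 4.27% of the 76-base stretches of a member, the figure for Krt27, occur in another GENCODE gene, in each case another member.

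The counts went into edgeR 4.0.16 under R 4.3.3. The filterByExpr filter (minimum count 10, total 15) left 16336 of 24063 genes, and libraries were scaled by TMM. SA and WT were compared by robust quasi-likelihood F-tests, adjusted after Benjamini-Hochberg over all tested genes. A call needed an adjusted p under 0.01 with a log2 fold change reaching 2 in either direction. Standard errors are the log2 fold change over the square root of F, and log2 CPM used a prior count of 2. TPM was used for levels only. No member was tested. The members and lists were chosen with earlier results of these data known. Named genes are the members, genes of the lists, the 3 nearest neighbors of each run and the 5 nearest profiles. Of the listed genes, Flg and Krt87 are not analysed here. P-values weigh the group difference against the spread between these samples, which the fit estimates with information from all tested genes. The steps were tested on simulated data. DESeq2 1.42.0, limma 3.58.1 and the settings named in the closing section were alternatives.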

Additional observations from a re-analysis of the deposited data

How the results depend on the processing

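All 10 members stayed above a log2 fold change of 2 in each alternative that tested them. The filter at a mean of 50 counts removed Krt74, which left 9. The median of the members was 7.76 to 8.83 in the leave-one-out fits and 7.72 to 8.70 otherwise. With library totals as the only scaling, the median of all genes tested moved from 0.03 to 0.31, and the members' median relative to it was 8.38 against 8.40. That scaling raised the share of higher genes among all called from 72.4% to 80.0% and made Gata3 a call, so that 2 regulators were higher. The fitted log2 fold change of Krt26 was 9.82 by DESeq2 and 7.77 by limma-voom, which treat a count of 0 differently. The SD between tumors had a median of 0.923 with a prior count of 0.5.

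Testing against the fold threshold (glmTreat) left 749 genes higher and 180 lower of the 1537 and 587, and 4 hair shaft keratins lower. With it, 0 hair shaft keratins were higher, as by limma-voom, and 0 trichohyalin-modifying enzymes were lower, as without the filter on low counts. For the replicate block, the numbers are not known to pair samples. The deviations of same-numbered samples correlated at -0.13, -0.10 and 0.02, and those of differently numbered samples at -0.15 to 0.21. So few pairs cannot tell whether same-numbered samples shared a batch. The block gave 1478 genes higher and 588 lower, 0 trichohyalin-modifying enzymes lower and 1 suprabasal keratin, Krt10, lower. It also lost the lower calls of Enpp2 and Myh11 among the marker lists.

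In the leave-one-out fits, hair shaft keratins were higher in 0 to 1 genes and lower in 9 to 10, regulators were higher in 1 to 2, trichohyalin-modifying enzymes were lower in 0 to 1, other S100 fused-type genes were lower in 1 to 2 and suprabasal keratins were lower in 0 to 1. Over all genes the counts were 1391 to 1614 higher and 529 to 710 lower. WT levels of the keratins other than Krt73 rest on at most 23 counts, which limits their fold changes. The cause of the other changes was not tested.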
